A study of Mus musculus with 9 samples.

Results

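The BCL2 family sets the threshold at which a mitochondrion releases cytochrome c and a cell enters apoptosis, and here 10 of its genes were followed among the 15228 genes in the deposited table. They were chosen by gene symbol: Bax, Bak1, Bcl2, Bcl2l1, Bcl2l11, Bbc3, Hrk, Mcl1, Bid and Bad, and all 10 were found. The libraries came from cells sorted as RGCs (retinal ganglion cells, whose axons form the optic nerve) of wild-type mice, which by the study's methods were young adult C57BL/6J mice of both sexes. The 3 libraries of Ctrl came from normal intact retinas. The 3 libraries of ONC came from retinas after optic nerve crush (ONC) with an intraocular injection of PBS, and the 3 libraries of TPEN from crushed retinas injected with TPEN, a membrane-permeable zinc chelator, in place of PBS. Retinas for sorting were taken 3 d after injury, and Ctrl had neither crush nor injection, so the effect of the injection cannot be told apart from that of the crush in ONC/Ctrl and TPEN/Ctrl. ONC/Ctrl asks what injury changed and TPEN/ONC what zinc chelation changed after injury. Levels are in reads per kilobase of exon, scaled to library size (RPKM). The sources do not tie libraries to separate mice, so p-values measure only the spread between these samples.

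In this family, the survival proteins BCL2, BCL-XL (gene Bcl2l1) and MCL1 hold the effectors BAX and BAK (gene Bak1) in check. The BH3-only proteins BIM (gene Bcl2l11), PUMA (gene Bbc3), HRK, BID and BAD are sensors of stress and damage that bind the survival proteins, and some of them also engage the effectors directly. After axon injury, death of RGCs is known to need BAX, and kinase signaling through DLK and JNK in RGCs is known to raise transcripts of BH3-only genes.

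Library totals worked out from the values were 20077226 to 23109754 reads in Ctrl, 22967138 to 22986065 in ONC and 19946993 to 22217283 in TPEN. The floor that a count of 0 allows, 3 reads, was 0.130 to 0.150 RPM (reads scaled to library size alone) and covers counting error only. The cell type label was checked against markers. The summed level of 8 rod genes was 19061 to 19877 RPKM in Ctrl, 16764 to 16982 in ONC and 17980 to 18086 in TPEN, against 358 to 368, 367 to 388 and 285 to 299 RPKM for the 8 listed genes of 10 RGC markers, and the RGC factors Pou4f2 and Pou4f3 were not listed. Most of the RGC sum was Nefl, with a mean of 240 RPKM over the 9 libraries. Rbpms averaged 0.439 RPKM, Pou4f1 0.332 and Slc17a6 0.380. From Ctrl to ONC the mean went from 0.605 to 0.393 RPKM for Rbpms and from 0.571 to 0.183 for Pou4f1. That of Slc17a6 went from 0.268 to 0.435, so the sum does not speak for each marker. The sort took cells positive for CD90.2 and negative for other surface markers, and RNA of rod genes was far more abundant in these libraries than that of RGC markers, so the levels below belong to the cells sorted as RGCs. Of 16 markers of microglia and macrophages, 14 were listed, with none at 0 in every library, and their sum was 5.07 to 5.79 RPKM in Ctrl, 64.6 to 68.6 in ONC and 28.2 to 28.7 in TPEN. All 12 of the tested markers were upregulated in ONC/Ctrl and 7 of them were downregulated in TPEN/ONC. In RNA from mixed cells, fewer cells of a type and less RNA per cell cannot be told apart.

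The members that changed were survival genes. Mcl1 was upregulated and Bcl2 downregulated after ONC, whereas no pro-death member tested passed with all libraries in any comparison. Hrk lay below the minimum mean of 0.5 RPKM and was not among those tested. With 1 library left out, Bbc3 passed in ONC/Ctrl and Bak1 in TPEN/Ctrl. Reads summed over a group were 1824 to 6223 for Mcl1 and Bcl2, against 64 to 1067 for the pro-death members tested. The roles were thus not measured equally well. Pmaip1, a pro-death gene outside the 10, is described below. At an adjusted p-value under 0.05 (limma, adjusted over all 13566 genes tested), 2 of the 9 members tested changed in ONC/Ctrl, against 18.7% of all genes. In TPEN/ONC 1 member changed, against 7.39% of all genes, and in TPEN/Ctrl also 1, against 13.4%. With so few members these counts lie near the background. At the study's further cutoff of a 1.5-fold change, no member passed, against 5.34% of all genes in ONC/Ctrl, 2.03% in TPEN/ONC and 3.91% in TPEN/Ctrl. At an unadjusted limma p under 0.05, 2 members differed in each comparison. The share of all genes at that p was not worked out, so this count has no background beside it. The median log2 fold change of the 9 members was 0.03 in ONC/Ctrl, -0.09 in TPEN/ONC and -0.03 in TPEN/Ctrl, against 0.02, -0.01 and 0.01 for all genes tested.

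**Figure D1:**
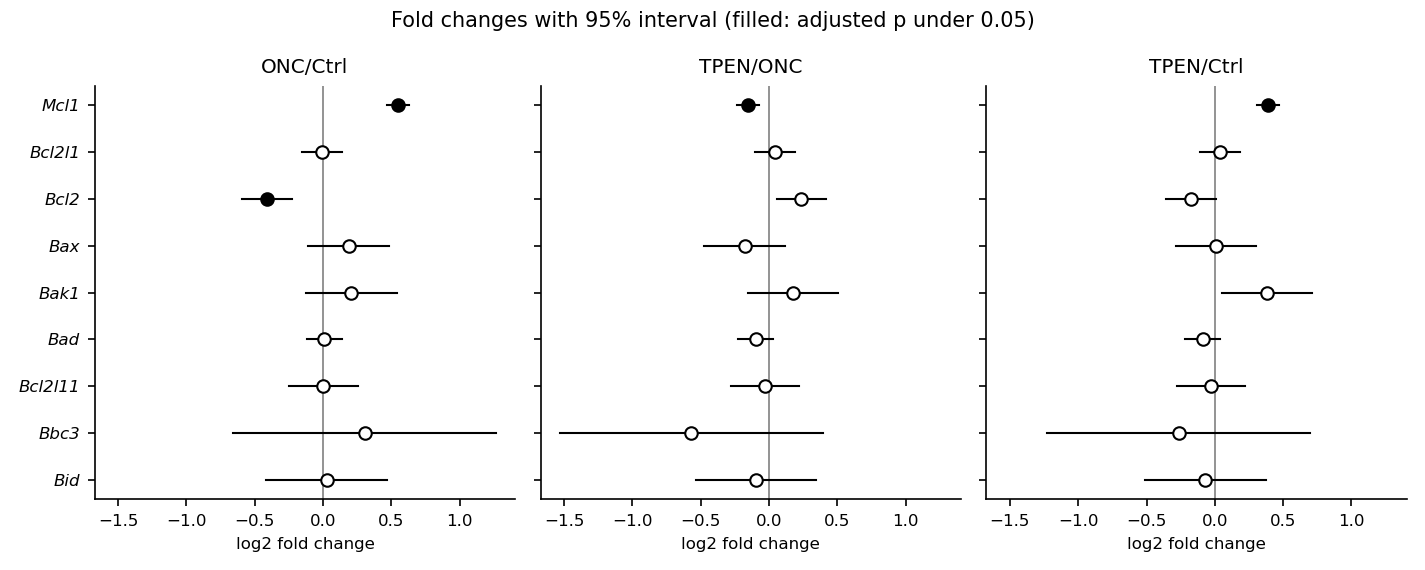
Log2 fold change, on the log2(RPKM + 0.1) scale, of the 9 members tested in the 3 comparisons, with the 95% interval from limma as a line and a filled point for an adjusted p under 0.05. Mcl1 is filled in each panel and Bcl2 in ONC/Ctrl, and the intervals of Bbc3 are the widest shown.

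The promoters of these changed genes, Mcl1 and Bcl2, are shown since their levels moved in opposite directions after ONC. Each window is the 250 bases before the start site in RefSeq (GRCm38.p6), on the strand of the gene, with GC boxes (GGGCGG on either strand), the motif bound by SP1-type factors, in capitals. The window of Mcl1 is chr3:95658471-95658720 on the plus strand and that of Bcl2 is chr1:106714291-106714540 on the minus strand. In the deposited table Mcl1 starts at 95658788 and Bcl2 at 106714274, both downstream of these RefSeq start sites.
Mcl1: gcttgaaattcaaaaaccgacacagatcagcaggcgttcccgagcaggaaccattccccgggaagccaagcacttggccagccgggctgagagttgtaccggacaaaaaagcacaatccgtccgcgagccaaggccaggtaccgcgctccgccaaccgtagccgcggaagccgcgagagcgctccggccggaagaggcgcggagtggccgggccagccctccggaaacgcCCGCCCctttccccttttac
Bcl2: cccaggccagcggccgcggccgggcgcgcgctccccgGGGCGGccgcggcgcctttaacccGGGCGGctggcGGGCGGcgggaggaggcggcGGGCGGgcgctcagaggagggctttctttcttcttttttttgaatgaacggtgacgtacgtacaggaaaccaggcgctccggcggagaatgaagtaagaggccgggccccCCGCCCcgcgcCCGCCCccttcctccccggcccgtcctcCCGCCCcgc
The window of Bcl2 held 7 GC boxes and that of Mcl1 held 1, and 32.7% of the 32851 mouse windows of this length held at least 1. The GC content was 64.4% for Mcl1 and 74.8% for Bcl2, against a median of 52.4% for all windows. Among the 16 windows of the 10 members, 11 held a GC box, and those of Bcl2l1 and Bak1 held none. Neither window above held the AP-1 motif TGANTCA, the cyclic AMP response element TGACGTCA, the C/EBP-ATF motif TGATGNAA or the STAT motif TTCNNNGAA, on either strand. These letters occur in 6.75%, 1.55%, 3.45% and 7.02% of all windows, in that order. Among the members, the only match to these 4 motifs was a C/EBP-ATF motif in the window of Hrk, 114 bases upstream of its RefSeq start site. That start site lies inside the gene as given in the deposited table. A match describes letters in a window and is not evidence of binding.

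Mcl1, on chromosome 3 (95658788 to 95663176, plus strand), encodes a short-lived survival protein that binds BAK and BIM. Its level was 17.7, 17.8 and 18.6 RPKM in the Ctrl libraries, 25.7, 26.6 and 26.9 RPKM in the ONC libraries and 24.2, 23.3 and 23.6 RPKM in the TPEN libraries. Every ONC library was higher than every TPEN library, and every TPEN library was higher than every Ctrl library. The group means were 18.05 ± 0.476, 26.4 ± 0.590 and 23.7 ± 0.493 RPKM (SD, n = 3 libraries). Mcl1 was 1.46-fold higher in ONC than in Ctrl (95% interval 1.38 to 1.55), or by 0.55 on the log2 scale (SE 0.036, limma adjusted p = 5.48e-06). It was 1.31-fold higher in TPEN than in Ctrl (1.24 to 1.39, limma adjusted p = 9.07e-05). Both calls held under all 17 alternatives tried, with log2 fold changes of 0.50 to 0.57 in ONC/Ctrl and 0.37 to 0.41 in TPEN/Ctrl.

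The decrease of Mcl1 in TPEN/ONC was small and less secure. Its level in TPEN was 0.897 times that in ONC (95% interval 0.848 to 0.949), a log2 fold change of -0.16 (limma adjusted p = 0.0301). This call was lost on leaving out any of the ONC or TPEN libraries, where the adjusted p was 0.0578, 0.1001 and 0.102 without ONC replicate 1, 2 and 3, and 0.0525, 0.0942 and 0.0955 without TPEN replicate 1, 2 and 3. The direction was the same under all 17 alternatives, with log2 fold changes of -0.17 to -0.13 and 9 calls. The TPEN libraries kept 67.5 ± 5.89% (SD, n = 3) of the rise of the Mcl1 level from the Ctrl mean to the ONC mean. The summed level of microglia and macrophage markers followed the same order of groups, and its part in the levels of Mcl1 was not tested.

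Bcl2, on chromosome 1 (106538178 to 106714274, minus strand), encodes the founding survival protein of the family. Its level was 3.65, 3.89 and 4.08 RPKM in the Ctrl libraries, 2.63, 2.95 and 3.09 RPKM in the ONC libraries and 3.36, 3.38 and 3.51 RPKM in the TPEN libraries. Every ONC library was lower than every TPEN library, and every TPEN library was lower than every Ctrl library. The group means were 3.88 ± 0.216, 2.89 ± 0.233 and 3.42 ± 0.0836 RPKM (SD, n = 3). The level in ONC was 0.751 times that in Ctrl (95% interval 0.662 to 0.852), or -0.41 on the log2 scale (SE 0.081, limma adjusted p = 0.00598). This decrease held under all 17 alternatives, with log2 fold changes of -0.46 to -0.33.

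With TPEN, Bcl2 lay between the levels of Ctrl and ONC, and neither difference passed the test. The log2 fold change was 0.24 in TPEN/ONC (95% interval 0.06 to 0.42, limma adjusted p = 0.117) and -0.17 in TPEN/Ctrl (-0.36 to 0.01, limma adjusted p = 0.201). On whole reads recovered from the RPKM values, tested with voom, the TPEN/ONC difference passed (limma adjusted p = 0.0256), and the 17 alternatives gave adjusted p-values from 0.0256 to 0.307. The TPEN libraries kept 46.4 ± 8.48% (SD, n = 3) of the decrease from the Ctrl mean to the ONC mean. The exons of Bcl2 share 558 bases, 6.09% of their length, with D630008O14Rik on the other strand, and the sources do not state whether strand was used in counting. The summed level of rod markers was also lowest in ONC and between the other groups in TPEN, and its part in the levels of Bcl2 was not tested.

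Bcl2l1, on chromosome 2 (152780668 to 152831728, minus strand), encodes BCL-XL, a survival protein of mature neurons. Its level was 5.46, 5.46 and 5.98 RPKM in Ctrl, 5.33, 5.94 and 5.54 RPKM in ONC and 5.78, 5.60 and 5.98 RPKM in TPEN. The groups overlapped in every comparison. The level in ONC was 0.995 times that in Ctrl (95% interval 0.899 to 1.10) and that in TPEN 1.03 times that in ONC (0.933 to 1.14).

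**Figure D2:**
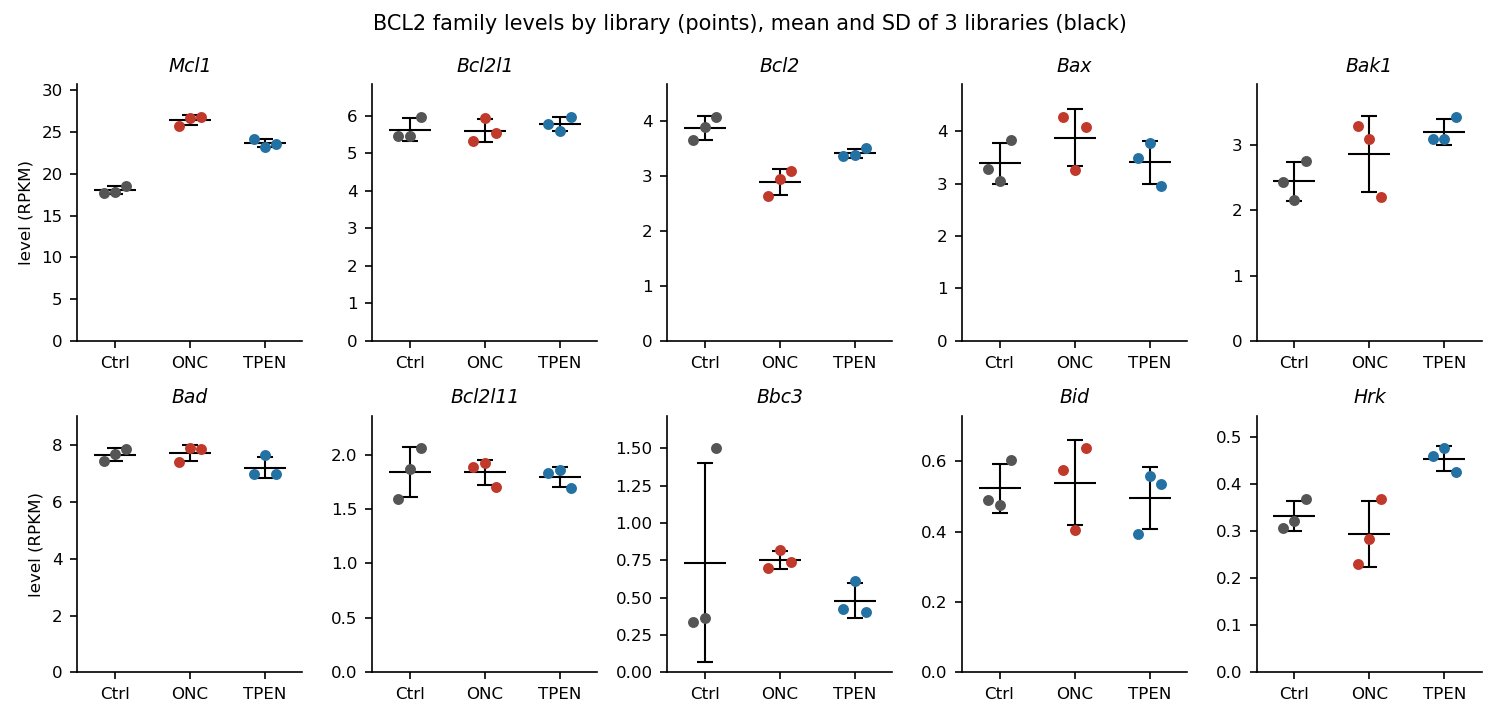
Level in RPKM (vertical axes from 0, with a scale for each gene) of the 10 members in every library, grouped as Ctrl, ONC and TPEN, with the mean and SD of 3 libraries in black. The 3 groups of Mcl1 and of Bcl2 do not overlap, and the highest Bbc3 point, 1.50 RPKM, is Ctrl replicate 3.

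The effectors did not pass the test. Bax, on chromosome 7 (45461697 to 45466898, minus strand), encodes the pore-forming effector that injured RGCs depend on for apoptosis. Its level was 3.28, 3.05 and 3.82 RPKM in Ctrl, 4.28, 3.26 and 4.09 RPKM in ONC and 3.49, 3.77 and 2.96 RPKM in TPEN. ONC replicates 1 and 3 were the highest of all, but the groups overlapped. The fold change was 1.14 in ONC/Ctrl (95% interval 0.927 to 1.397, limma adjusted p = 0.375) and 0.884 in TPEN/ONC (0.720 to 1.08, limma adjusted p = 0.483). Bax had 93 to 155 reads per library, and 12.2% of its exon length is shared with RP23-218K15.5 on the same strand, so its reads are uncertain.

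Bak1, on chromosome 17 (27019810 to 27029009, minus strand), encodes BAK, the effector that resides on the mitochondrial outer membrane. Its level was 2.43, 2.16 and 2.75 RPKM in Ctrl, 3.29, 3.09 and 2.21 RPKM in ONC and 3.10, 3.09 and 3.44 RPKM in TPEN. Every TPEN library was higher than every Ctrl library, while ONC spanned both, with ONC replicate 3 near the lowest Ctrl library. The fold change in TPEN/Ctrl was 1.303 (95% interval 1.04 to 1.64), which did not pass the threshold (limma adjusted p = 0.128). Without ONC replicate 3 the adjusted p was 0.0459, at the same log2 fold change of 0.38. In ONC/Ctrl the fold change was 1.153 (0.916 to 1.45, limma adjusted p = 0.386). Exons of Bak1 share 357 bases with Ggnbp1 on the other strand, and its reads are uncertain to that extent.

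Among the BH3-only genes, Bad and Bcl2l11 had the higher levels and the narrower intervals. BAD is a sensor of growth factor signaling, and its gene ranged from 7.42 to 7.87 RPKM in Ctrl, 7.39 to 7.90 RPKM in ONC and 6.98 to 7.65 RPKM in TPEN. BIM, a direct activator of the effectors, had transcript levels of 1.59 to 2.06 RPKM in Ctrl, 1.70 to 1.92 RPKM in ONC and 1.69 to 1.86 RPKM in TPEN. The groups of both genes overlapped in every comparison. The fold change of Bad was 1.01 in ONC/Ctrl (95% interval 0.921 to 1.10) and that of Bcl2l11 was 1.002 (0.842 to 1.19). In TPEN/ONC they were 0.935 (0.856 to 1.02) and 0.979 (0.823 to 1.16). Exons of Bad share 25.8% of their length with Gpr137 on the other strand, whereas those of Bcl2l11 overlap no other listed gene.

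Bbc3, on chromosome 7 (16308393 to 16318205, plus strand), encodes PUMA, a BH3-only protein induced by p53 and by stress pathways. It had 16, 18 and 64 reads in the Ctrl libraries, 34, 40 and 36 reads in the ONC libraries and 18, 29 and 17 reads in the TPEN libraries. In RPKM these were 0.336, 0.367 and 1.50 in Ctrl, 0.696, 0.820 and 0.738 in ONC and 0.424, 0.615 and 0.401 in TPEN. Ctrl replicate 3 stood apart, at 4.09 times the higher of the other Ctrl libraries and 1.83 times the highest of the other 8 libraries. All ONC libraries were higher than all TPEN libraries and than the other two Ctrl libraries. Looked for after these values were seen, Bbc3 was the only gene over 1 RPKM in Ctrl replicate 3 that exceeded 3 times its level in both other Ctrl libraries, out of 11956 genes over 1 RPKM.

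The result for Bbc3 turned on that library. With all libraries the log2 fold change in ONC/Ctrl was 0.30 (95% interval -0.66 to 1.27, limma adjusted p = 0.683). Without Ctrl replicate 3 it was 0.91, with a limma adjusted p of 0.0148, and without Ctrl replicate 1 it was -0.02. In TPEN/Ctrl it turned from -0.27 to 0.34 without Ctrl replicate 3, and neither value passed. In TPEN/ONC the log2 fold change was -0.57 (-1.53 to 0.39, limma adjusted p = 0.493), with no overlap between the groups, and the alternatives gave adjusted p-values from 0.0942 to 0.672. The ratio of RPM in TPEN, over summed reads, to that in ONC was 0.645 (exact 95% interval 0.467 to 0.886, covering counting error only). Exons of Bbc3 overlap no other listed gene.

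Bid, which links death receptors to mitochondria once caspase 8 cleaves its product, was at 0.475 to 0.603 RPKM in Ctrl, 0.405 to 0.638 RPKM in ONC and 0.395 to 0.558 RPKM in TPEN. Its groups overlapped, and its fold change was 1.02 in ONC/Ctrl (95% interval 0.750 to 1.38). Exons of Bid share 17.7% of their length with its neighbor Bcl2l13 on the other strand.

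Hrk, on chromosome 5 (118164648 to 118189478, plus strand), encodes harakiri, a BH3-only protein largely confined to neurons and induced by JNK signaling. With a mean of 0.359 RPKM it was below the minimum mean of 0.5 RPKM and was tested only without that filter. It had 39, 42 and 42 reads in Ctrl, 30, 37 and 48 reads in ONC and 52, 60 and 48 reads in TPEN, or 0.306, 0.320 and 0.368 RPKM, 0.230, 0.284 and 0.368 RPKM and 0.458, 0.476 and 0.424 RPKM. All TPEN libraries were higher than all others, while Ctrl and ONC overlapped. Its log2 fold change was -0.14 in ONC/Ctrl (limma adjusted p = 0.602), 0.50 in TPEN/ONC (95% interval 0.14 to 0.87, limma adjusted p = 0.0984) and 0.36 in TPEN/Ctrl (limma adjusted p = 0.191). None passed, and with voom on whole reads the adjusted p in TPEN/ONC was 0.0948.

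Counted by overlap alone, the members were not set apart from other genes. The groups did not overlap for 2 of the 10 members in ONC/Ctrl (Mcl1 and Bcl2), against 36.2% of all 15228 genes. In TPEN/ONC they did not overlap for 4 members (Mcl1, Bcl2, Bbc3 and Hrk), against 28.1%, and in TPEN/Ctrl for 4 (Mcl1, Bcl2, Bak1 and Hrk), against 31.3%.

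Levels per exon length spanned the table, from Mcl1, with a mean of 22.7 RPKM over the 9 libraries and above 86.4% of all genes, to Hrk, above 7.35%. The order was Mcl1, Bad (7.53 RPKM), Bcl2l1 (5.68), Bax (3.56), Bcl2 (3.40), Bak1 (2.84), Bcl2l11 (1.82), Bbc3 (0.655), Bid (0.520) and Hrk (0.359). The ranges of neighbors in this order overlapped for Bax and Bcl2, Bcl2 and Bak1, Bbc3 and Bid, and Bid and Hrk. Bax exceeded Bcl2 in 5 of 9 libraries, Bcl2 exceeded Bak1 in 7, Bbc3 exceeded Bid in 6 and Bid exceeded Hrk in 8, so the order within these pairs was not fixed.

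Summed by role, the survival genes held most of the summed level of the 10 members. Bcl2l2, a survival gene outside the 10, is not in these sums. It averaged 16.7 RPKM in Ctrl, 15.7 in ONC and 15.7 in TPEN, and 13.3% of its exon length is shared with Gm20521 on the same strand. Bcl2, Bcl2l1 and Mcl1 together were at 26.8 to 28.7 RPKM in Ctrl, 33.7 to 35.5 RPKM in ONC and 32.2 to 33.4 RPKM in TPEN, which was 60.2% to 63.0%, 64.8% to 66.9% and 64.2% to 66.8% of the sum of the 10 members. The effectors were at 5.20 to 6.58, 6.30 to 7.57 and 6.39 to 6.86 RPKM, and the BH3-only genes at 10.2 to 12.4, 10.8 to 11.3 and 10.05 to 11.2 RPKM. The survival sum of every Ctrl library was lower than that of every ONC and TPEN library, and most of that sum was Mcl1. The effector and BH3-only sums overlapped between ONC and each other group. Transcript sums do not weigh how much protein each gene makes.

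**Figure D3:**
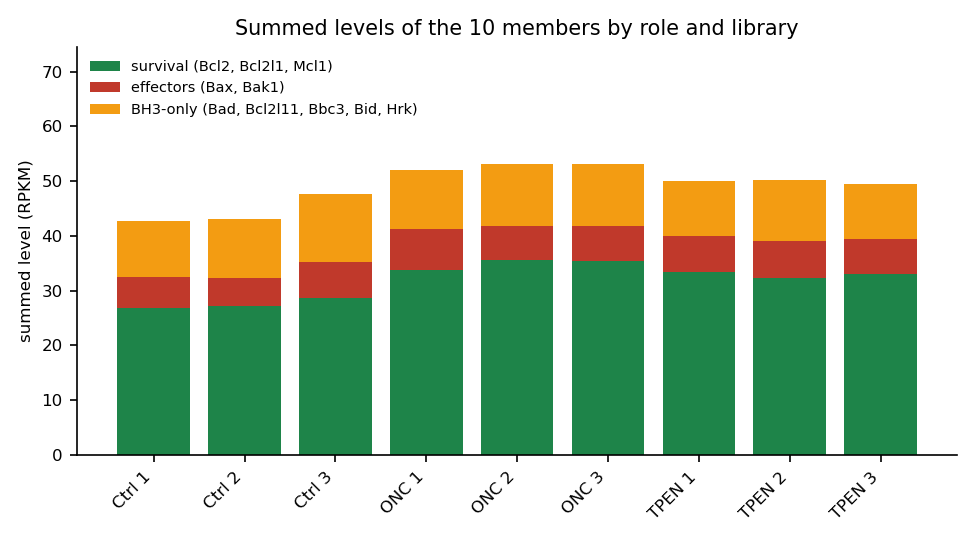
Summed level in RPKM of the 10 members in each of the 9 libraries (bars from 0), stacked by role into survival genes, effectors and BH3-only genes. The survival segment is 26.8 to 28.7 RPKM in Ctrl and 32.2 to 35.5 RPKM in the ONC and TPEN libraries, while the other segments overlap.

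The genes whose levels ran most like those of the changed members were found by Pearson correlation of log2(RPKM + 0.1) over the 9 libraries, which fall into 3 groups and share their depth, so the values are a description. For Mcl1 they were 6430562O15Rik (r = 0.997) and Fgf2 (r = 0.995), which encodes a growth factor. Fgf2 averaged 2.62 RPKM in Ctrl against 14.5 RPKM in ONC and 9.66 RPKM in TPEN. For Bcl2 they were Mfap2 (r = 0.966), which encodes a microfibril protein, and Gm31166 (r = 0.960).

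Of 57 other genes in 4 lists of the cell death pathway, 40 were tested, and 7 changed in ONC/Ctrl (5 upregulated), 3 in TPEN/ONC (2 upregulated) and 8 in TPEN/Ctrl (6 upregulated). These shares of 17.5%, 7.5% and 20% compare with 18.7%, 7.39% and 13.4% of all genes. The lists were further BCL2 family genes, the mitochondrial apoptosis machinery, the death receptor pathway and regulators of BH3-only genes.

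Of 15 further BCL2 family genes, 9 were listed and 7 tested. Pmaip1 encodes NOXA, a BH3-only protein that binds MCL1, and it lay below the filter. It had 2, 0 and 0 reads in the Ctrl libraries, 29, 54 and 38 reads in the ONC libraries and 8, 12 and 7 reads in the TPEN libraries. No groups overlapped, with ONC the highest and TPEN between. The ratio of RPM was 57.6 in ONC/Ctrl (exact 95% interval 15.6 to 481, with only 2 reads in Ctrl) and 0.247 in TPEN/ONC (0.157 to 0.378), which cover counting error only. Without the filter, where 19.1%, 7.68% and 13.5% of genes changed in ONC/Ctrl, TPEN/ONC and TPEN/Ctrl, Pmaip1 passed in all 3 comparisons, with log2 fold changes of 2.76 (limma adjusted p = 2.25e-05), -1.51 (limma adjusted p = 0.00406) and 1.24 (limma adjusted p = 0.00578). The TPEN libraries kept 23.2 ± 5.69% (SD, n = 3) of its rise from Ctrl to ONC.

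Pmaip1 moved in the same directions as the microglia and macrophage markers, and their part in its levels was not tested. Bnip3, which encodes a mitochondrial protein of mitophagy and hypoxia, was downregulated in ONC/Ctrl by a log2 fold change of -0.20 (limma adjusted p = 0.0459). That call was lost without any of the Ctrl or ONC libraries or TPEN replicate 1, with adjusted p from 0.0621 to 0.143. Exons of Bnip3 share 22.3% of their length with Gm45507 on the other strand. Bcl2l12 was downregulated in TPEN/Ctrl, from 4.47 ± 0.353 to 3.28 ± 0.286 RPKM (SD, n = 3, log2 fold change -0.44, limma adjusted p = 0.00887), and 28.9% of its exon length is shared with Gm15545 on the other strand.

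**Figure D4:**
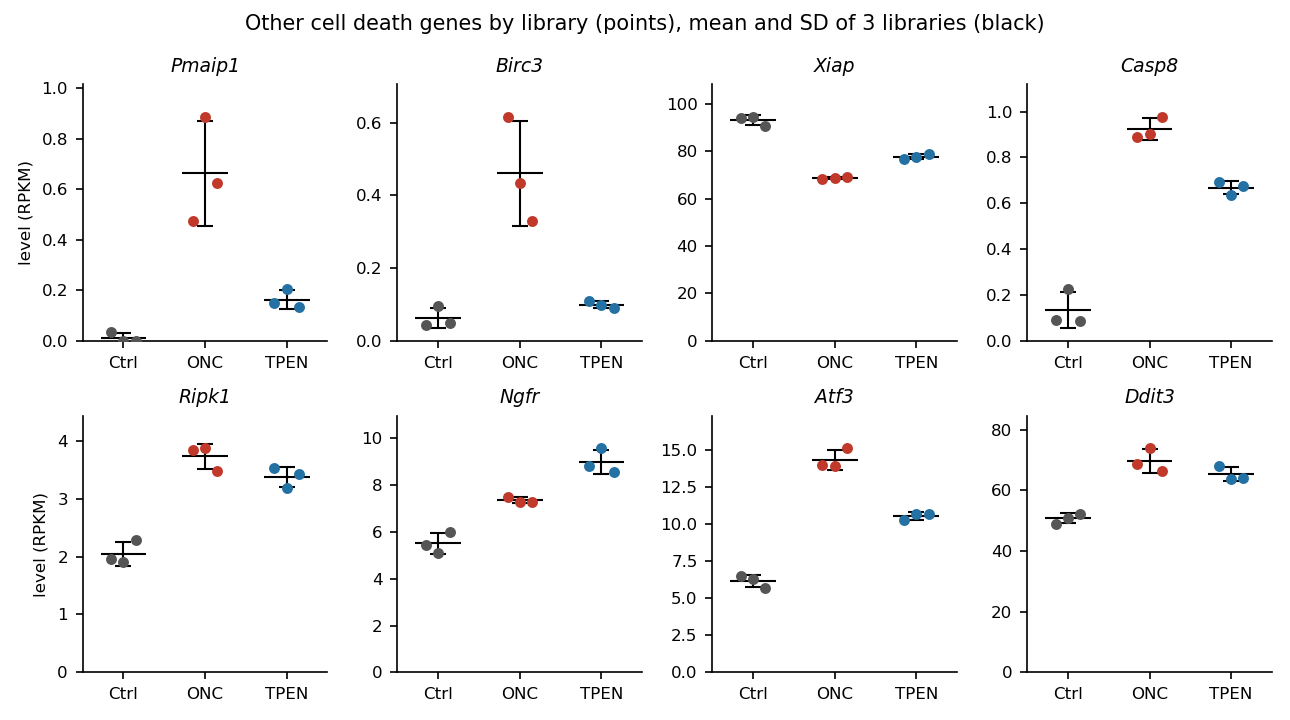
Level in RPKM (vertical axes from 0, with a scale for each gene) of 8 other cell death genes in every library of Ctrl, ONC and TPEN, with the mean and SD of 3 libraries in black. Pmaip1, Birc3, Casp8 and Atf3 are highest in ONC, Xiap is lowest there, and Ngfr is highest in TPEN.

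In the mitochondrial apoptosis machinery, 1 of 17 tested genes changed, and it was the same gene in every comparison. Xiap encodes an inhibitor of caspases 3, 7 and 9. Its level was 93.8, 94.6 and 90.5 RPKM in the Ctrl libraries, 68.4, 68.5 and 68.9 RPKM in the ONC libraries and 76.9, 77.6 and 78.6 RPKM in the TPEN libraries. The groups did not overlap, and the order was that of Bcl2. The log2 fold change was -0.44 in ONC/Ctrl (limma adjusted p = 2.94e-06), 0.18 in TPEN/ONC (limma adjusted p = 0.00355) and -0.26 in TPEN/Ctrl (limma adjusted p = 0.000155), and all 3 calls held under all 17 alternatives. The TPEN libraries kept 62.7 ± 3.61% (SD, n = 3) of the decrease. Birc3, which encodes the inhibitor of apoptosis cIAP2, was below the filter with 5, 11 and 5 reads in Ctrl, 71, 50 and 38 reads in ONC and 11, 11 and 9 reads in TPEN. ONC was above both other groups, and without the filter its log2 fold change was 1.76 in ONC/Ctrl (limma adjusted p = 0.000281) and -1.46 in TPEN/ONC (limma adjusted p = 0.00329).

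In the death receptor pathway, 8 of 10 genes were listed and 5 tested. Casp8, the initiator caspase of this pathway, had 6, 15 and 5 reads in Ctrl, 59, 60 and 65 in ONC and 40, 41 and 39 in TPEN. ONC was the highest group and Ctrl the lowest, with no overlap. Its level rose from 0.134 ± 0.0780 to 0.923 ± 0.0486 RPKM in ONC (SD, n = 3, log2 fold change 2.17, limma adjusted p = 9.23e-05). It was 0.669 ± 0.0277 RPKM in TPEN (SD, n = 3), upregulated in TPEN/Ctrl (limma adjusted p = 0.000562). Casp8 passed the minimum mean of 0.5 RPKM only through ONC and TPEN, since its Ctrl level lay below it. The lower level in TPEN than in ONC passed under none of the 16 alternatives that tested it, with adjusted p from 0.103 to 0.482.

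Ripk1, a kinase of cell survival and necroptosis, was at 2.05 ± 0.206 RPKM in Ctrl, 3.73 ± 0.221 in ONC and 3.38 ± 0.174 in TPEN (SD, n = 3). It was upregulated in ONC/Ctrl by a log2 fold change of 0.83 (limma adjusted p = 0.000183) and in TPEN/Ctrl by 0.70 (limma adjusted p = 0.000898). The exons of Ripk1 share 34.3% of their length with Gm17084 on the same strand. Ngfr, the p75 neurotrophin receptor, was at 5.51 ± 0.464, 7.35 ± 0.128 and 8.99 ± 0.528 RPKM (SD, n = 3), and TPEN was the highest group. It was upregulated in ONC/Ctrl (log2 fold change 0.41, limma adjusted p = 0.00271), in TPEN/Ctrl (0.70, limma adjusted p = 0.000152) and in TPEN/ONC (0.29, limma adjusted p = 0.0387). The last call was lost without any ONC or TPEN library or Ctrl replicate 1, with adjusted p from 0.0590 to 0.120. Tnfrsf1a, which encodes the main receptor of TNF and lay below the filter, had 18 reads in Ctrl, 112 in ONC and 111 in TPEN. Without the filter it was upregulated in ONC/Ctrl (log2 fold change 1.83, limma adjusted p = 0.000444) and in TPEN/Ctrl (1.97, limma adjusted p = 0.000484).

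The order of the group means, with ONC highest and Ctrl lowest, was shared by Birc3, Casp8, Ripk1 and 3 of the regulators described next (Atf3, Ddit3 and Sox11). The summed level of microglia and macrophage markers had the same order, and so did that of astrocyte markers, of which 3 of 4 were listed, at 5.54 to 6.21 RPKM in Ctrl, 27.2 to 28.3 RPKM in ONC and 17.3 to 20.05 RPKM in TPEN. Most of the astrocyte sum in ONC and TPEN was Gfap, with means of 2.79, 22.2 and 14.4 RPKM in Ctrl, ONC and TPEN. Aldh1l1 averaged 2.04, 4.22 and 3.24 RPKM and S100b 1.09, 1.28 and 1.10 RPKM. Ngfr, like Hrk and Bak1 among the members, had its highest mean in TPEN, as did the summed level of 7 cone markers, at 133 to 142 RPKM in Ctrl, 119 to 127 RPKM in ONC and 208 to 211 RPKM in TPEN, with 6 of 7 upregulated in TPEN/ONC. The part of these cell types in the levels of the genes was not tested.

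Among 13 regulators of BH3-only genes, 11 were tested, and 2 changed in ONC/Ctrl (18.2%), 1 in TPEN/ONC (9.09%) and 3 in TPEN/Ctrl (27.3%). Atf3, an injury-induced factor, was at 6.52, 6.27 and 5.71 RPKM in the Ctrl libraries, 14.0, 13.9 and 15.1 RPKM in the ONC libraries and 10.2, 10.7 and 10.7 RPKM in the TPEN libraries. The 3 groups did not overlap. The log2 fold change was 1.20 in ONC/Ctrl (limma adjusted p = 8.83e-07) and -0.44 in TPEN/ONC (limma adjusted p = 0.00252). Ddit3, which encodes CHOP, a factor of the unfolded protein and integrated stress responses, rose from 50.8 ± 1.60 to 69.7 ± 3.92 RPKM in ONC (SD, n = 3, log2 fold change 0.45, limma adjusted p = 9.51e-05). Ddit3 was at 65.3 ± 2.28 RPKM in TPEN (SD, n = 3), upregulated in TPEN/Ctrl (limma adjusted p = 0.000644).

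Mapk10, which encodes the neuronal kinase JNK3, was upregulated in TPEN/Ctrl by a log2 fold change of 0.46 (limma adjusted p = 0.0335). That call was lost without Ctrl replicate 1 or 2, without ONC replicate 1 or without any TPEN library, with adjusted p from 0.0502 to 0.107. Sox11, a transcription factor of injured RGCs that lay below the filter, had 14 reads in Ctrl, 79 in ONC and 55 in TPEN. Without the filter its log2 fold change was 0.92 in ONC/Ctrl (limma adjusted p = 0.00451) and 0.72 in TPEN/Ctrl (limma adjusted p = 0.0235).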

How the data were processed

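RNA of cells sorted by flow cytometry as RGCs, positive for CD90.2 and negative for other surface markers, was made into stranded mRNA libraries with molecular identifiers. Reads were trimmed with Trimmomatic 0.36, per the labels, and mapped by the authors to GRCm38/mm10 with STAR. The deposited values are RPKM per gene. The counting program, annotation, use of strand and collapse of identifiers are not given in the sources used here. The 9 columns of the authors' own comparisons (p-values, FDR and log2 fold changes) were not used. Every RPKM value times exon length was a whole multiple of a step for each library (within 0.01 reads), which gave read numbers and totals. Of the listed genes, 44 to 58 had no read in a Ctrl library, 0 to 1 in an ONC library and 8 to 11 in a TPEN library. Genes without a read were thus few among the 15228 listed genes in every group. They were almost absent in ONC and most frequent in Ctrl.

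Differences were tested with limma 3.58.1 (R 4.3.3), with a mean-variance trend, on log2(RPKM + 0.1). Of the listed genes, 13566 averaged 0.5 RPKM or more and were tested. All 9 libraries were in the fit, and p-values were adjusted over these genes (Benjamini-Hochberg). Alternatives were quantile normalization, other filters and pseudocounts, only the libraries compared, a replicate block, each library left out, and voom on whole reads. Adding 0.1 understates fold changes of low genes. The test was checked on simulated data for ONC/Ctrl. It recovered 9 of 50 genes changed 1.25-fold, 31 of 50 changed 1.5-fold, 46 of 50 changed 2-fold and 49 of 50 changed 3-fold. It called 6 of 13366 unchanged genes. Most changes of 1.25-fold were thus missed there. In that check 13366 of 13566 genes were left unchanged, whereas 18.7% of the genes tested were called in ONC/Ctrl in the deposited data. The recovery of each size of change in the deposited data was not tested. Intervals cover 95%. Every member is named, with the genes of the 4 pathway lists that changed, the list genes below the filter that changed without it (chosen after their values were seen), and the 2 genes most correlated with each changed member. The members and lists were chosen with earlier results of these data known. Cell type markers were from 12 lists. Neutrophil and T cell markers were not listed. Exons were compared with those of other listed genes for overlap.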

Additional observations from a re-analysis of the deposited data

How the results depend on the processing

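Over the 10 members and 3 comparisons, 410 results under the alternatives kept their direction and their side of the threshold, 8 no longer passed it, 4 newly passed it and 34 turned direction. None of those 34 passed the threshold, and all were results that had not passed it with all libraries either. On the log2 scale in ONC/Ctrl, quantile normalization turned Bad (-0.030), Bcl2l11 (-0.054) and Bid (-0.23), and in TPEN/Ctrl Bax (-0.027). In ONC/Ctrl voom turned Bad (-0.0097) and Bcl2l11 (-0.012), and without a filter gave -0.014 and -0.016. Leaving out single libraries gave, in ONC/Ctrl, -0.049 to 0.036 for Bcl2l1, -0.091 to 0.084 for Bcl2l11, -0.024 to 0.91 for Bbc3, -0.087 to 0.19 for Bid and -0.013 to 0.039 for Bad. It gave -0.081 to 0.0097 for Bcl2l11 and -0.26 to 0.036 for Bid in TPEN/ONC. In TPEN/Ctrl it gave -0.066 to 0.10 for Bax, -0.12 to 0.054 for Bcl2l11, -0.59 to 0.34 for Bbc3 and -0.14 to 0.061 for Bid. In TPEN/ONC the count of changed members fell from 1 to 0 with quantile normalization (Mcl1, limma adjusted p = 0.0540) and was 2 with voom on whole reads, with or without a filter on low genes (Mcl1 and Bcl2). It was 0 to 1 when libraries were left out. In TPEN/Ctrl it was 1 to 2 when libraries were left out, and in ONC/Ctrl 2 to 3 (3 without Ctrl replicate 3, where Bbc3 was also called). The added cutoff of a 1.5-fold change left 0 members in each comparison. For the other pathway genes that cutoff left 3 of 7 in ONC/Ctrl, 0 of 3 in TPEN/ONC and 4 of 8 in TPEN/Ctrl. Without a filter on low genes, 11 changed in ONC/Ctrl and 5 in TPEN/ONC, where 19.1% and 7.68% of all genes changed. With voom, 5 changed in TPEN/ONC, and with voom and no filter, which was chosen after seeing the data, 13 and 7. The cause was not tested, apart from the larger number of genes tested without a filter. For voom, quantile normalization, the replicate block and left-out libraries, shares of all genes called were not worked out. The counts of members and pathway genes under them cannot be set against such a share.

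Replicate numbers are shared between groups, but deviations of same-numbered libraries from their group means had correlations of -0.0623 to 0.0268, against -0.0375 to 0.0511 for other pairs, so the numbers were not taken to pair the samples. With a replicate block the count of changed members in TPEN/ONC was 0 (Mcl1, log2 fold change -0.16, limma adjusted p = 0.0702), and no other call of a member changed. Of the pathway genes, Ngfr lost its call in TPEN/ONC (limma adjusted p = 0.0913). Differences between levels under the floor of 3 reads were not detectable at this depth.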
